A study of Mus musculus with 6 samples.

Results

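First intron peaks are stretches of open chromatin that lie between the first and second exons of a transcript. In the authors' deposited table of accessibility in mouse embryonic stem cells, a peak was taken as a member when its annotation began with an intron and named that intron as the first of its transcript. The distal part of chromosome 14, from position 75130556, was left out. This gave 5794 peaks of the 65535 listed, and 376 first intron peaks on distal chromosome 14 were not members. Outside that stretch the annotation alone decided membership, while the stretch itself was set aside with earlier results of these data known. The libraries were made by ATAC-seq, a method that uses the Tn5 transposase to insert adapters into open DNA, from E14 embryonic stem cells carrying the transgene Tg(Nkx2-5-EmGFP). Both groups carried that reporter, and they differed in genotype: 3 control libraries are labelled WT and 3 are labelled as Lmna knockout. All cells were grown in fetal bovine serum with leukemia inhibitory factor on mitomycin-treated mouse embryonic fibroblast feeders, which were reduced by preplating before collection. The labels do not say how the knockout was made, whether it is 1 clone, or whether libraries of a group came from separate cultures. The p-values in the table therefore rest on how far libraries of a group differ, and that spread may be technical.

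The first intron begins just downstream of the promoter. It is often the longest intron of a gene and is a frequent site of enhancers and of alternative start sites, so an open site there may act on the gene that holds it or on another. Lamin A and lamin C, the products of Lmna, are filaments of the nuclear lamina, the meshwork under the inner nuclear membrane that contacts large, gene-poor and mostly silent stretches of chromatin. Embryonic stem cells make little lamin A/C compared with differentiated cells.

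The values are the authors' mean log2 concentrations of each group, a log2 fold of knockout over control, and a false discovery rate (FDR) per peak. A peak with an FDR of 0.05 or less is called gained where the fold is above 0 and lost where it is below 0. Values per library were not used here, so no spread can be given beside a group mean. How deeply each library was sequenced is unknown. The table lists peaks by p and stops at a p of 0.422, which leaves 33543 of the 99078 tested peaks out, so medians over listed peaks leave out small changes. As a check of the labels, a promoter peak of Lmna at chr3:88492472-88493370 (mm10) went from 6.27 in control to 2.0 in knockout cells in the authors' deposited table, as mean log2 concentrations (FDR 4.44e-20). Other Lmna peaks went both ways. That at chr3:88503109-88503930 fell from 4.79 to 0.86 (deposited FDR 4.77e-07). Those at chr3:88509424-88510368 and chr3:88514529-88515460 rose, from 6.14 to 6.75 and from 4.15 to 5.67 (deposited FDR 0.0209 and 9.76e-05). Lmna itself had no listed first intron peak. Promoter peaks of all 8 embryonic stem cell markers were listed, with control log2 concentrations of 4.63 to 6.96 (median 6.29) and knockout values of 5.6 to 7.33 (median 6.96), and 4 of the 8 were gained. Promoter peaks of 11 of 16 feeder fibroblast markers were listed too, with control values of 2.18 to 5.98 (median 5.35) and knockout values of 2.71 to 6.16 (median 4.86), and 0 of the 11 passed in either direction. The medians of the stem cell and feeder markers thus moved apart. Housekeeping promoter peaks were listed for 12 of 15 genes, with a median of 6.08 in control and 6.22 in knockout cells. Of these 12, 2 were gained and 1 was lost. Among all listed promoter peaks outside distal chromosome 14, 12.1% were gained and 1.3% were lost. The part of feeder cells in the results below was not tested.

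Of the 5794 first intron peaks, 30 contain a start site that RefSeq places inside them, 32 starts in all, of 28 long noncoding RNA (lncRNA) genes and 2 protein coding genes. Only 1 of these starts belongs to the gene that holds the intron. Of the 30 peaks, 6 were gained and 1 was lost. Of the 5764 members without such a start, 782 were gained (13.6%) and 126 were lost (2.19%). The difference between these groups was not tested. The sequences below are the start windows that lie whole within the gained peaks, followed by the window of Tet2, whose first intron carries 4 gained peaks described further on. They are shown because the letters of whole peaks were not at hand: the first 6 are part of changed first intron peaks, and the last is the promoter of a gene whose first intron changed. Each runs 5′ to 3′ along the strand of the gene that starts there, from 250 bases before to 50 bases after the start, in RefSeq's GRCm38.p6, the assembly of mm10. Capitals mark matches, on either strand, to the searched letters of the motifs described after the sequences.

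Ahnak2, inside an intron with no gene ID near Clba1, chr12:112795693-112795992, minus strand: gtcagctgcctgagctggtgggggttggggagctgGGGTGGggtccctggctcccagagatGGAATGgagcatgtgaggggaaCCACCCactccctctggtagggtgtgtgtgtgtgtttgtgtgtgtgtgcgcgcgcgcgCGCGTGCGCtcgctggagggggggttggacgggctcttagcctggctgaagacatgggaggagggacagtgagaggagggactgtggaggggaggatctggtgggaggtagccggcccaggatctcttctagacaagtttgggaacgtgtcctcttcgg

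Gm52057, inside an intron of Ndufaf2, chr13:108136235-108136534, minus strand: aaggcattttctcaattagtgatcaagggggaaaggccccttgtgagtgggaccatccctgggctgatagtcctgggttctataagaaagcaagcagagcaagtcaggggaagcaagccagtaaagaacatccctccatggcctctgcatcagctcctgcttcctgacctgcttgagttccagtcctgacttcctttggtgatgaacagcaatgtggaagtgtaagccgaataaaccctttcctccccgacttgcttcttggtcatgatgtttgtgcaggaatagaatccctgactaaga

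Gm4262, inside an intron of Litaf, chr16:11008648-11008947, plus strand: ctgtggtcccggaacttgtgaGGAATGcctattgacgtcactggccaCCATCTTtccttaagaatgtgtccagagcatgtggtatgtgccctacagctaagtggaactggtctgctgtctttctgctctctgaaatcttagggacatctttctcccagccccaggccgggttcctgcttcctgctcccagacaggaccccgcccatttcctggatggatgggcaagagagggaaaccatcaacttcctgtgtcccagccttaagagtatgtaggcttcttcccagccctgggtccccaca

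0610040F04Rik, inside its own intron, chr6:108623118-108623417, minus strand: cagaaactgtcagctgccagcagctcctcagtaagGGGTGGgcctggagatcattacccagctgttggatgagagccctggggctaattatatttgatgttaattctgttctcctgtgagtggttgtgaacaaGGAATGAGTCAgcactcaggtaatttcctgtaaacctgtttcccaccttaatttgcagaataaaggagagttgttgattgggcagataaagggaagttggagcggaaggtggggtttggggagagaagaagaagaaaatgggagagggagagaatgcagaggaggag

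Gm34412, inside an intron of Zfp423, chr8:87927233-87927532, plus strand: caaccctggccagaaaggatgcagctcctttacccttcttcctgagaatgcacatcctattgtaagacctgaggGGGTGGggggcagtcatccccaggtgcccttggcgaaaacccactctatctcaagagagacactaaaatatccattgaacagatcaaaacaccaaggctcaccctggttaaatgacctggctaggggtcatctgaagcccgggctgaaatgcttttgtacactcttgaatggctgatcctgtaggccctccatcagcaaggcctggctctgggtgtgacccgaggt

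Gm30015, inside an intron with no gene ID near Nectin1, chr9:43737871-43738170, minus strand: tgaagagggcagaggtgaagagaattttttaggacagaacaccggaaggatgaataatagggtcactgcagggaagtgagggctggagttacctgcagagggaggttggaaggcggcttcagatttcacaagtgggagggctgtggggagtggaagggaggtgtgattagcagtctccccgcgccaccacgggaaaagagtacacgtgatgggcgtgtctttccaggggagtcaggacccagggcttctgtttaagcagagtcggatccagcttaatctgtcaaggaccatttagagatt

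Tet2, promoter of the host gene, chr3:133544341-133544640, minus strand: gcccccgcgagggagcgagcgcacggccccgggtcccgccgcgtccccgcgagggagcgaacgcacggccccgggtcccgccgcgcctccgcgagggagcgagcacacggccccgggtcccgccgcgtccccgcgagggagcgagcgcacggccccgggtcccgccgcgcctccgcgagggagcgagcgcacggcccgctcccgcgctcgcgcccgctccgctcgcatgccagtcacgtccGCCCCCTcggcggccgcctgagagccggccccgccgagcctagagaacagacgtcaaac

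The 6 windows inside gained peaks had a GC content of 47.7% to 63.7% and 1 to 13 CpG pairs, beside a median of 52.7% and 7 CpG pairs over all 32851 RefSeq windows of the same length. The Tet2 window was richer, with 81.3% GC and 57 CpG pairs. Klf factors of naive stem cells recognise CACCC boxes, and the letters CCACCC stood in 3 of the 6 windows inside gained peaks, those of Ahnak2, 0610040F04Rik and Gm34412, as in 31.5% of all windows. Tead factors end the Hippo pathway, and their letters GGAATG stood in the windows of Ahnak2, Gm4262 and 0610040F04Rik, as in 14.7% of all windows. In the 0610040F04Rik window that match overlaps one to the AP-1 letters TGANTCA, which occur in 7.81% of all windows. The letters AAGATGG of Yy1, a zinc finger factor of many promoters, stood in the Gm4262 window and in 6.34% of all windows. The core letters GCGCANGCG of Nrf1, a factor of CpG-rich promoters, stood in the Ahnak2 window and in 6.25% of all windows. In the Tet2 window there was 1 match, to the letters AGGGGGC from the core of the insulator protein Ctcf, which 10.6% of all windows hold. Letters of other stem cell and lineage factors were searched and are not in these 7 windows. They were AAGGTCA of Esrrb, which 4.72% of all windows hold, and ACAATGG of Sox factors, which 3.66% hold. The Gata letters AGATAAG stand in 3.04% of all windows, the Stat letters TTCNNNGAA stand in 8.3%, and the Oct octamer ATGCAAAT stands in 1.74%. These matches describe the letters and show no binding. Over all 32 start windows that overlap members, 13 held the Klf letters, 6 Tead, 4 each AP-1 and Stat, and 3 Esrrb. Sox letters stood in 2, Gata, Ctcf, Nrf1 and Yy1 letters in 1 each, and the octamer in 0. The remaining sequence of first intron peaks could not be searched because no genome was at hand.

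Accessibility of these 6 peaks rose by a log2 fold of 0.68 to 1.65 in the authors' deposited table. The peak with the Gm34412 start, in Zfp423, a zinc finger transcription factor gene, went from 4.24 in control to 5.88 in knockout cells (log2 concentration, FDR 2.02e-05). The peak with the Gm52057 start, in Ndufaf2, which encodes an assembly factor of respiratory complex I, went from 4.63 to 5.87 (FDR 0.000319). The peak with the 0610040F04Rik start went from 3.07 to 4.66 (FDR 0.00663). The peak with the Ahnak2 start, the only protein coding gene among them, had the smallest change, from 5.68 to 6.36 (FDR 0.0285).

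Most first intron peaks that changed were more open in the knockout cells. Of the 5794 peaks, 788 were gained and 127 were lost, so gains made up 86.1% of the 915 changed peaks. That is 13.6% of members gained, beside 11.8% of all 60705 listed peaks outside distal chromosome 14, and 2.19% lost, beside 2.43%. The gained peaks had a median log2 fold of 1.34 and the lost peaks one of -1.91. Over all listed members the median log2 fold was 0.55, with 66.3% of them above 0, beside a median of 0.45 over all listed peaks outside distal chromosome 14. Among the other classes, gains made up 81.7% of changed peaks in later introns, 90.3% at promoters and 77.4% in distal intergenic sequence. Peaks are not replicates, so the differences between classes were not tested.

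The count of gains and losses depends on where zero is set. The median fold of all listed peaks, distal chromosome 14 included, was 0.49, and knockout libraries read higher at most listed peaks of every class of location. When each peak was retested against that shift, 152 first intron peaks were gained and 526 were lost, and the gained share became 22.4%. The 152 were all among the 788, the 127 lost peaks all remained lost, and 399 peaks were newly lost. In the same retest 2.04% of all listed peaks outside distal chromosome 14 were gained and 9.63% were lost. That shift is itself a median over listed peaks and so leaves out peaks near no change. It does not describe weak peaks. Under a mean log2 concentration of 3, all listed peaks outside distal chromosome 14 had a median fold of -0.92, with 33.6% above 0. Whether it reflects the cells or the authors' normalization was not tested, and folds below are as deposited.

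**Figure D1:**
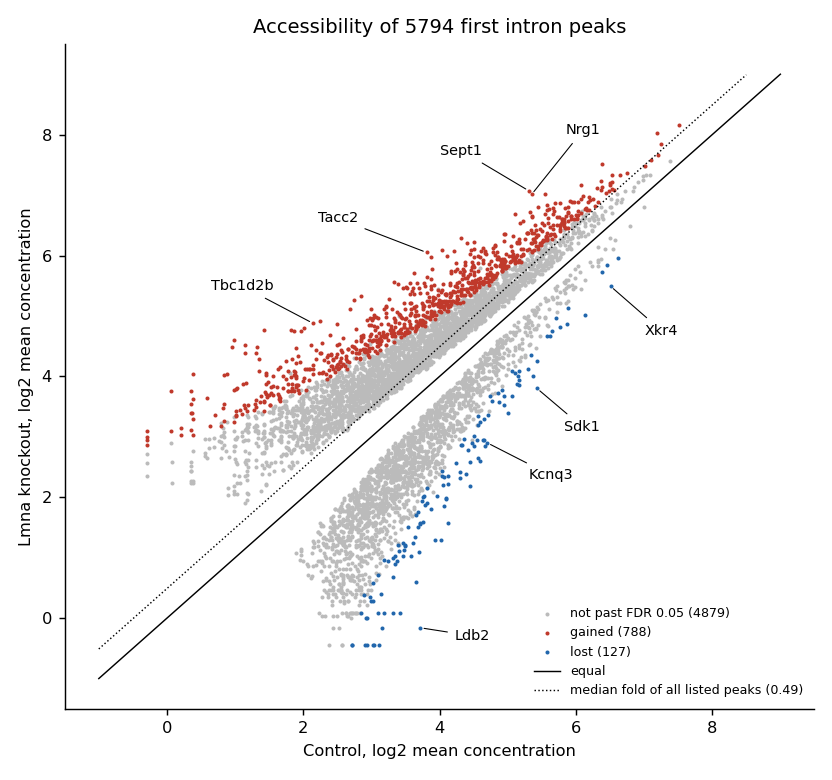
Each point is a first intron peak, with the authors' mean log2 concentration in control libraries on the x axis and in Lmna knockout libraries on the y axis. Gained peaks (788) lie above and lost peaks (127) below the line of equal accessibility; the empty band along that line holds the peaks with p above 0.422, which are not listed.

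Gained peaks were wider than lost ones and stronger in knockout cells, but not in control cells. Direction was called from these same levels. The median log2 concentration of gained peaks went from 3.9 in control to 5.22 in knockout cells, and their median width was 794.5 bases. Lost peaks went from 4.06 to 2.19, with a median width of 525 bases. Peaks that did not pass had medians of 3.51 and 3.8 and a width of 514 bases. A larger read number makes a change of a given size easier to call, so calls and strength are tied.

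Among first intron peaks with a mean log2 concentration under 3, 54 were gained and 45 lost of 1478, an almost even split. The median log2 fold of these 1478 was -0.86, with 37.3% above 0, so most weak listed members read lower in knockout cells. Between 4 and 5 the counts were 256 and 30 of 1522, and between 5 and 6 they were 210 and 8 of 739. Of the 220 strongest, at 6 or more, 110 were gained and 4 were lost. The share of peaks gained was lowest, at 3.65%, in the weakest bin and highest in the strongest. Over all listed peaks outside distal chromosome 14, 3.11% were gained and 3.83% lost under 3. Those shares were 13.4% and 2.44% between 4 and 5, and 18.9% and 1.28% between 5 and 6. A rise of the gained share with strength was thus not limited to first introns. At 6 or more, gains were 42.0% of later intron peaks, 43.6% of distal intergenic peaks, 18.5% of promoter peaks and 25.1% of all listed peaks. First intron peaks stood beside the other distal classes there and above promoters, without a test of the difference.

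**Figure D2:**
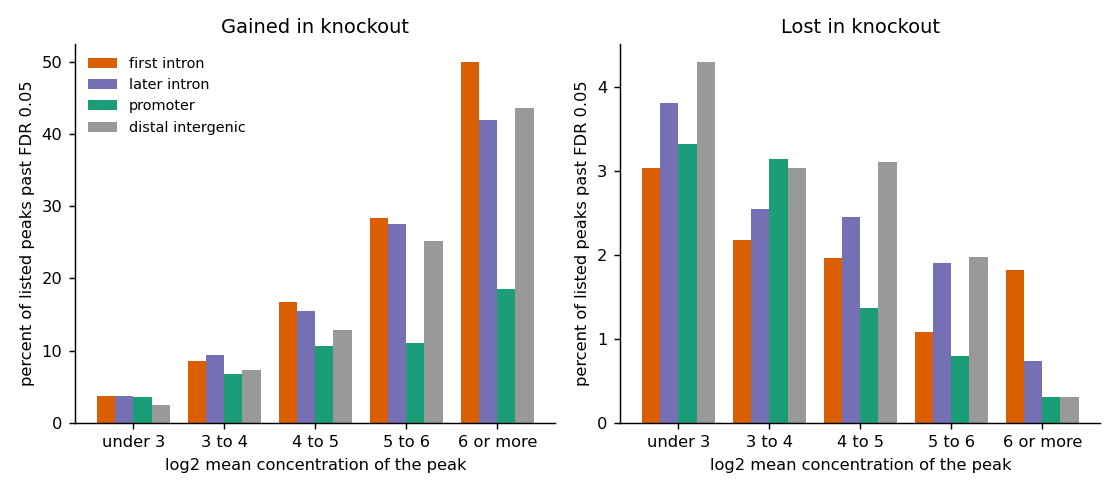
Percent of listed peaks that were gained (left) and lost (right) in Lmna knockout cells, by mean log2 concentration of the peak and by class of location, outside distal chromosome 14. Gains in first introns climbed from 3.65% in the weakest bin to 110 of 220 peaks in the strongest, where promoter peaks reached 18.5%; the 2 panels have different scales.

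Distance to the nearest start site of any gene went with direction. That distance is not the position within the gene that holds the intron, and 34.4% of members lay upstream of the nearest start. By the starts of the deposited annotation, members lay at least 3009 bases from the nearest one, because it gives peaks within 3 kb to promoters. The 30 members with a RefSeq start inside them show that these distances do not cover every known start. Gains made up 90.2% of changed peaks between 3 and 10 kb from the nearest start (284 gained, 31 lost), 86.5% between 10 and 30 kb, 87.0% between 30 and 100 kb, and 62.7% beyond 100 kb (42 gained, 25 lost). With weak peaks set aside, at a log2 concentration of 4 or more, the shares were 96.3%, 93.8%, 91.0% and 81.0%, and the share beyond 100 kb was again the lowest. Beyond 100 kb the shares in later introns and in distal intergenic sequence were 67.4% and 71.2%, so a lower gained share far from starts was not limited to first introns.

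Longer genes held relatively more of the losses. In genes under 50 kb, 146 first intron peaks were gained and 10 lost. In genes over 400 kb, 63 were gained and 28 lost, a gained share of 69.2% against 93.6%. At a log2 concentration of 4 or more these shares were 78.9% and 97.1%. The median length of the gene was 106 kb for gained peaks, 216 kb for lost peaks and 115 kb for peaks that did not pass. Gene length and distance from a start are tied to each other and were not separated. The number of introns in the transcript made less difference: the gained share was 83.3% with 1 or 2 introns and 87.5% with more than 10.

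**Figure D3:**
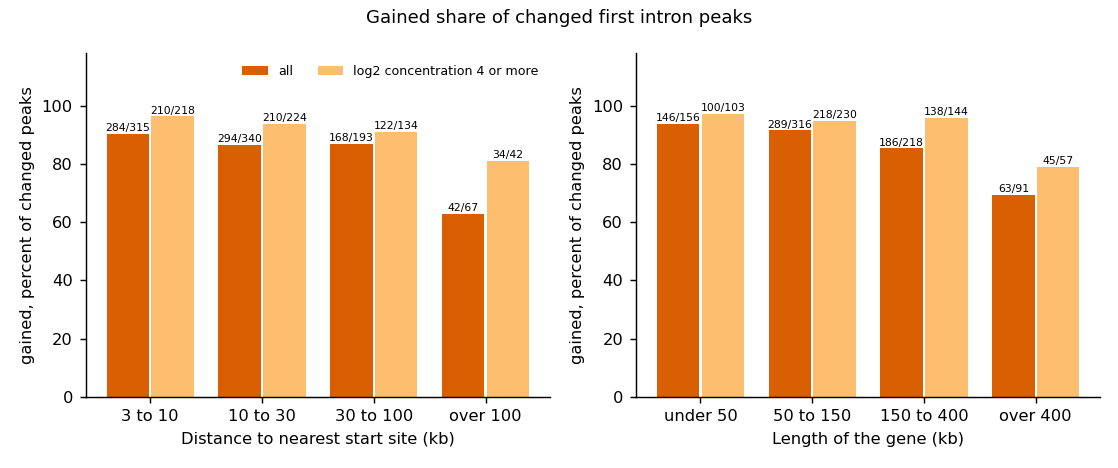
Gained peaks as a percent of changed first intron peaks, by distance to the nearest start site (left) and by length of the gene that holds the intron (right), for all members and for those with a log2 concentration of 4 or more; gained and changed counts stand above each bar. The lowest bars are those beyond 100 kb (62.7%) and in genes over 400 kb (69.2%).

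The largest gains were taken among changed peaks at or above the median log2 concentration of 4.01, with 1 peak per gene. In the authors' deposited table the 10 largest ran from a log2 fold of 2.12 at Arhgap28, a GTPase-activating protein, to 2.74 at Tbc1d2b, a protein with a domain that activates Rab GTPases. The Tbc1d2b peak, chr9:90262016-90262803, went from 2.14 in control to 4.88 in knockout cells on the log2 concentration scale (FDR 2.07e-05), from a weak site to one above the median of all listed peaks. Similar steps were listed at Dip2b, from 2.25 to 4.91 (FDR 9.48e-06), and at Pik3r3, a regulatory subunit of phosphoinositide 3-kinase, from 2.75 to 5.26 (FDR 7.35e-07). The Pik3r3 peak lies outside the bounds that RefSeq gives that gene. At both Dip2b and Pik3r3 the knockout level was above 4.01. Wwc1, known as Kibra and an upstream member of the Hippo pathway, went from 2.84 to 5.33 (FDR 9.64e-07), and Nek7, a mitotic kinase, from 2.69 to 5.11 (FDR 1.34e-05) in the deposited table. Nacc1, a BTB domain transcription regulator, had a deposited log2 fold of 2.37, and its peak lies nearer to the start of Trmt1. For the Grtp1 peak (2.13) the annotation gave no gene ID, so it is named by the nearest gene.

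The gains with the smallest FDR were at stronger peaks. The first was in Sept1, which encodes a septin, a filament-forming GTPase, at chr7:127223821-127225815, where the authors' deposited table gives 5.31 in control and 7.07 in knockout cells (log2 fold 1.77, FDR 5.83e-12). Tacc2, a coiled-coil protein of centrosomes and microtubules, followed, from 3.81 to 6.05 (FDR 9.59e-11). Then came Hcrtr2, an orexin receptor, from 5.54 to 7.02 (FDR 1.18e-10), and Nrg1, the growth factor neuregulin 1, from 5.35 to 7.01 (FDR 1.88e-10). Pde3a, a phosphodiesterase that breaks down cyclic AMP, went from 4.32 to 6.29 (FDR 2.08e-10). Retested against the median shift, each of these 5 still passed, with an adjusted p of 3.34e-06 to 0.000157. With the shift subtracted, their log2 folds were 1.0 to 1.75.

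The largest losses were taken in the same way, at or above a log2 concentration of 4.01. Under that limit the 10 largest were smaller in size than the 10 largest gains, although over all members the median loss (-1.91) was larger than the median gain (1.34). In the authors' deposited table they ran from a log2 fold of -1.34 at Fam49b to -1.8 at Kcnq3, a voltage-gated potassium channel subunit. The Kcnq3 peak, chr15:66139985-66140825, went from 4.7 in control to 2.9 in knockout cells (FDR 0.00278). It was thus above the median of all listed peaks in control cells and below it in knockout cells. Lsamp, a cell adhesion protein anchored in the membrane, went from 4.65 to 2.95 (FDR 0.00595), and Sdk1, an adhesion molecule of synapses, from 5.43 to 3.8 (FDR 0.000223) in the deposited table. Maml3, a coactivator of Notch, went from 5.37 to 4.01 (FDR 0.00206), and Trio, a guanine nucleotide exchange factor, from 4.94 to 3.52 (FDR 0.00742). Among the 5 losses with the smallest FDR, taken without a limit on concentration, Xkr4 was the strongest site, going from 6.51 to 5.49 (FDR 0.00024), while Ldb2, a LIM domain-binding cofactor, went from 3.72 to -0.16, the largest step of the 5 (log2 fold -3.88, FDR 0.00108).

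Just inside the limit, the gained Capsl peak had a deposited FDR of 0.0499 and a log2 fold of 1.79, and the lost Spock3 peak an FDR of 0.0491 and a fold of -2.52. Just outside it were Srgap3 (FDR 0.0501, log2 fold 1.23) and Asic2 (FDR 0.0502, log2 fold -2.14) in the authors' deposited table. The members on either side of the limit thus differed little in FDR.

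The annotation gave 4870 members a gene ID for their intron, 2555 genes in all, and 924 members had none. The gene that holds the intron was also the nearest gene for 89.0% of these peaks. Gained first intron peaks fell in 564 genes and lost ones in 90. Most genes had few peaks: 1550 had 1 listed first intron peak and 165 had 5 or more. Of the 110 genes with at least 2 changed first intron peaks, 88 had gains alone, 4 had losses alone and 18 had both. Peaks of 1 gene share a neighbourhood and are not independent.

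Galnt2, a glycosyltransferase that starts O-linked glycosylation, had the most gained peaks by annotation, 9 of 87, but 84 of the 87 lie outside the gene's RefSeq bounds. All 87 were assigned to the first intron of 1 transcript, and they spread over 4.33 Mb, from chr8:119959529 to chr8:124291535, whereas RefSeq places Galnt2 at chr8:124231394-124345722. Of these peaks, many lay nearer to other genes, 34 of which were named as nearest. Of the 3 peaks inside Galnt2, 1 was gained, at chr8:124235481-124235971, from 1.3 in control to 4.39 in knockout cells in the authors' deposited table (FDR 0.000176). Such placement was uncommon: 93.5% of the 4867 peaks whose intron gene has RefSeq bounds overlap those bounds.

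Tet2 encodes a dioxygenase that oxidises 5-methylcytosine and starts the removal of DNA methylation, and 4 of its 5 first intron peaks were gained. The strongest, chr3:133532451-133534780, went from 7.19 in control to 8.02 in knockout cells in the authors' deposited table (FDR 4.14e-07). The peak with the smallest FDR, chr3:133524341-133525133, went from 5.1 to 6.69 (FDR 7.41e-09). The other gained peaks went from 3.94 to 5.3 and from 6.08 to 6.7 (FDR 0.00391 and 0.0161), and the fifth, nearest to the start, had an FDR of 0.548 at a log2 fold of 0.42. The promoter peak that covers the CpG-rich window printed above went from 6.34 to 6.75 and did not pass (log2 fold 0.41, FDR 0.152). Retested against the median shift, 1 of the 4 gains still passed, that at chr3:133524341-133525133 (log2 fold 1.1 over the shift, adjusted p 0.000475).

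Other genes also held several gained peaks. In Pdzd2, a protein with several PDZ domains, 4 of 8 peaks were gained, led by chr15:12500599-12501248, from 4.11 to 6.0 in the authors' deposited table (FDR 3.66e-08). In Macf1, a giant linker of microtubules and actin, 4 of 8 were gained, with log2 folds of 0.67 to 1.61. In Nrg1, 3 of 9 were gained and the remaining 6 ranged from -2.41 to 1.2 without passing. In Wwc1, 3 of 6 were gained, among them a peak that went from 0.38 to 4.04 (deposited FDR 0.00045). Nedd4l, a ubiquitin ligase for membrane channels, had 4 of 8 gained, and Zbtb7c, a BTB zinc finger protein, had 3 of 5 gained, up to a log2 fold of 2.79. When retested against the median shift, no gain in Macf1 passed (smallest adjusted p 0.0858), while all those in Wwc1 did (largest adjusted p 0.00558). In Pdzd2, Nrg1, Nedd4l and Zbtb7c some gains passed and others did not.

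Lost peaks formed smaller groups. Lncenc1, a lncRNA gene known from naive mouse embryonic stem cells, had 2 of 7 first intron peaks lost and none gained. Its peak at chr13:97491738-97492992 went from 6.14 in control to 5.01 in knockout cells in the authors' deposited table (FDR 0.000523), and that at chr13:97454804-97455566 from 5.0 to 3.39 (FDR 0.00144). Its promoter peaks had log2 folds of 0.54, 0.34 and -0.51 and none passed. Ptprg, a receptor protein tyrosine phosphatase, had 2 of 11 lost, both more than 100 kb from the nearest start, and 0 gained. In Lsamp, 2 of 5 were lost at neighbouring sites, each with a deposited log2 fold of -1.7.

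As deposited, first intron peaks of several genes moved both ways. The lncRNA gene 5730522E02Rik had 16 listed first intron peaks, 2 gained and 2 lost. Its lost peak at chr11:26120726-26121385 went from 4.66 to 2.85 in the authors' deposited table (FDR 0.00227), and its gained peak at chr11:26166912-26167793, in the same intron, went from 5.66 to 6.51 (FDR 0.00258). In Ldb2 the lost site described above lay in the same gene as a peak that went from 1.95 to 4.23 (deposited FDR 0.00655). Ephb1, a receptor for ephrins, had 2 lost and 1 gained of 6, and Trio had a gain from 3.88 to 5.49 (deposited FDR 0.000484) beside its loss. In these genes the deposited direction differed between sites of the same first intron or gene. When retested against the median shift, their losses still passed. Of their gains only that in Trio did (adjusted p 0.0333), while that in Ldb2 was just outside the limit (adjusted p 0.0526). The opposite directions thus depended in most of these genes on where zero is set.

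**Figure D4:**
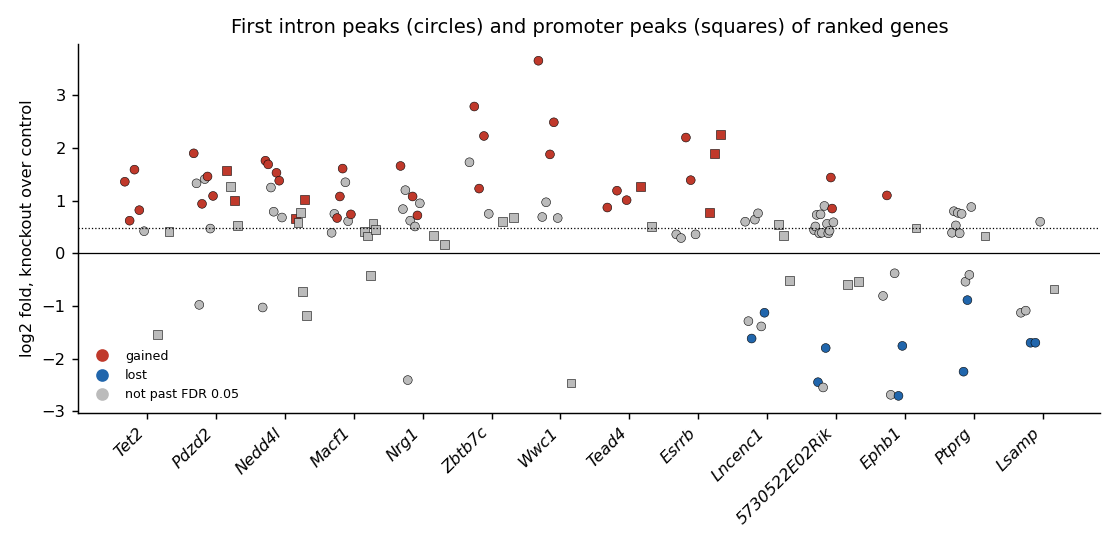
Log2 fold of knockout over control at each listed first intron peak inside the gene (circles) and each promoter peak (squares) of 14 genes, with the line of no change and, dotted, the median fold of all listed peaks (0.49). The 9 genes on the left hold gained first intron peaks, the 5 on the right hold lost ones, and Ephb1 and 5730522E02Rik hold both.

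Promoters of the same genes mostly did not pass. Among the 9 genes with a gene ID behind the 10 largest gains, 7 had a listed promoter peak, and the strongest promoter peak was gained in 2 of them, Arhgap28 and Nek7. For the 9 behind the 10 largest losses, 7 had one and 0 passed at their strongest promoter peak. Over all genes with a gained and no lost first intron peak, 413 of 546 had a listed promoter peak, and 101 of these had a gained one (24.5%). Where first intron peaks were listed but none passed, a promoter peak was gained in 249 of 1355 genes (18.4%), and where a first intron peak was lost and none gained, in 8 of 49 (16.3%). The log2 fold of a gene's first intron peaks and that of its promoter peaks had a Pearson correlation of 0.12 over 1834 genes, a description across genes that share libraries. With later intron peaks of the same gene it was 0.16 over 1237 genes.

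Gene lists for stem cell states, heart and other lineages, signalling and chromatin had few first intron peaks each. These lists were chosen with earlier results of these data known, and their counts are read beside the 13.6% gained and 2.19% lost among all members. A peak without a gene ID was given the nearest gene. In the retest against the median shift, no gain named below passed in the naive, formative and primed, leukemia inhibitory factor, endoderm, trophoblast and neural lists. The leukemia inhibitory factor and neural lists had 1 lost peak each in that retest. There the cardiac factor list had 1 gained and 1 lost peak and the heart muscle list 1 gained and 0 lost. Of the naive pluripotency list, 3 of 20 genes had such peaks, 7 in all, and 2 of the 7 were gained, both in Esrrb, a nuclear receptor that maintains naive cells. They went from 3.48 to 4.87 in the authors' deposited table (FDR 0.0123) and from 1.37 to 3.58 (FDR 0.0259). Nanog, Pou5f1 and Sox2, the core factors, had no listed first intron peak, and the only peak of the core list did not pass at a log2 fold of 0.27. Of 6 peaks of the formative and primed list, 2 were gained, in Dnmt3b, a de novo DNA methyltransferase, from 1.51 to 3.53 (FDR 0.0419), and nearest to Pou3f1, from 1.31 to 3.61 (FDR 0.0231). In the leukemia inhibitory factor pathway, 1 of 9 passed, in the receptor gene Lifr, from 7.25 to 7.84 (FDR 0.00325). The median log2 fold of these 9 was -0.58, with 4 above 0.

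Of the 10 first intron peaks of cardiac transcription factors, 2 were gained and 0 were lost. The peak in Gata4, a zinc finger factor of heart and endoderm, went in the authors' deposited table from 4.91 to 5.81 (FDR 0.0218), while its second peak, from 2.6 to 1.99, did not pass (FDR 0.626). The peak nearest to Hopx, a homeodomain protein of cardiac progenitors, went from 3.88 to 5.98 (FDR 8.39e-09). Nkx2-5 and Gata6 had no listed first intron peak. Among 12 peaks of heart muscle genes 2 were gained, in Casq2, the calcium store protein of the sarcoplasmic reticulum, from 5.57 to 6.83 (FDR 4.52e-06), and in Kcnq1, a potassium channel of repolarisation, from 3.76 to 5.12 (FDR 0.00419). Among 7 endothelial and 2 smooth muscle peaks 0 passed. The trophoblast list had 3 gained of 4, all 3 in Tead4, and the endoderm list had 1 of 14, the same Gata4 peak.

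As deposited, the chromatin and cytoskeletal lists held gains and no losses, which did not hold in the retest against the median shift. Of 28 first intron peaks of chromatin and DNA methylation genes, 6 were gained and 0 lost, 4 of them in Tet2, 1 in Ehmt1, a histone H3 lysine methyltransferase, and the Dnmt3b peak. Of 32 peaks of actin, adhesion and Hippo genes, 8 were gained and 0 lost. Those were 3 in Tead4, the transcription factor at the end of the Hippo pathway, 2 in Actn1, an actin crosslinker, and 1 each in Mras, a small GTPase, Tln2, which links integrins to actin, and Svil, an actin-binding protein. In the authors' deposited table the Mras peak went from 4.21 to 6.08 (FDR 7.87e-07) and the Tln2 peak from 4.56 to 6.0 (FDR 2.84e-05). In the retest the chromatin list had 1 gained and 1 lost peak, and the actin, adhesion and Hippo list had 2 gained and 1 lost. The median log2 folds of both lists, 0.66 and 0.6, were close to the 0.55 of all members.

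Neuronal adhesion genes had the lowest median fold among the lists with at least 4 peaks. The 77 first intron peaks of neuronal adhesion and synapse genes had a median log2 fold of -0.73, with 27 above 0. Their median log2 concentration was 3.21, below the 3.76 of all members. The median fold of members was -0.86 under a log2 concentration of 3, 0.64 between 3 and 4, and 0.34 in genes over 400 kb. The list was not compared with members of matched strength or gene length. Of these, 4 were gained and 3 lost, and in the retest against the median shift 0 were gained and 13 lost. The lost ones were 2 in Lsamp and 1 in Csmd1, a large complement-regulating membrane protein, and Cadm2, an adhesion molecule, held 2 of the gains. Potassium channels had 3 gained and 3 lost of 37, and 0 gained and 5 lost in the retest. Among the lost ones, Kcnh8 went from 3.15 to -0.16 in the authors' deposited table (FDR 0.0139). Of 7 peaks of nuclear envelope genes 1 passed, in Syne3, a nesprin of the outer nuclear membrane, from 4.48 to 2.89 (FDR 0.00879). Of 16 peaks of Wnt, BMP, TGF-beta and FGF genes 1 was lost (3 in the retest), nearest to Acvr2a, an activin receptor, from 4.24 to 2.57 (FDR 0.0213). The neural list had 1 gained of 8, in Ncam1, and the 3 peaks of glucose and lipid metabolism genes did not pass.

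**Figure D5:**
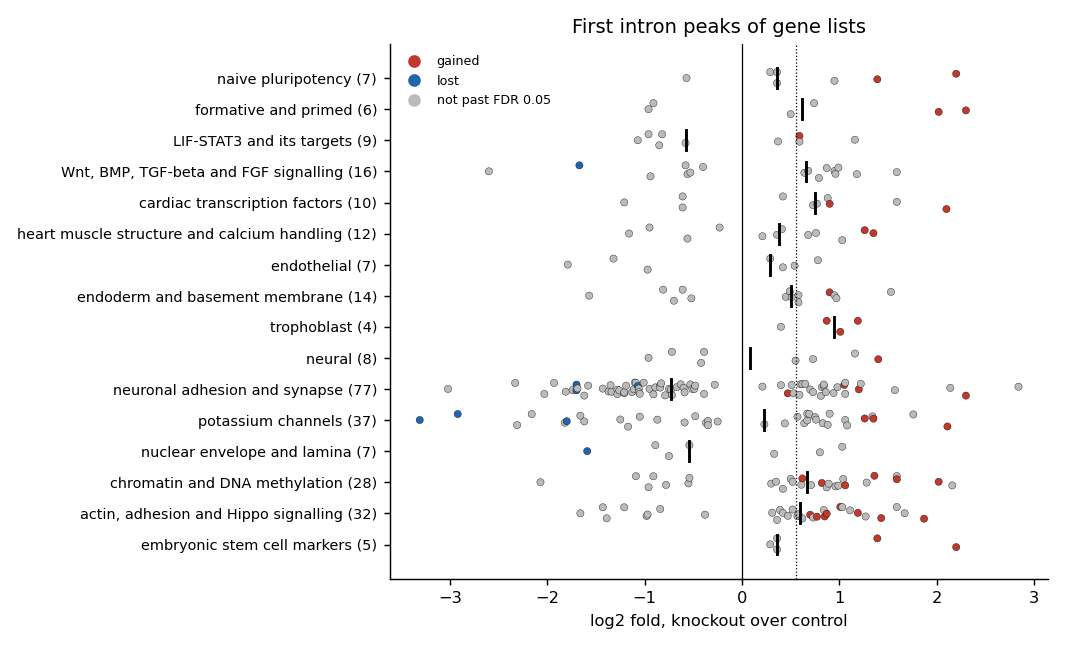
Log2 fold of knockout over control at the first intron peaks of each gene list with at least 4 peaks (number in parentheses), with the list's median as a black bar and the median of all members (0.55) dotted. The 77 peaks of neuronal adhesion and synapse genes have their median at -0.73, while chromatin and actin lists have theirs at 0.66 and 0.6. Lists were not matched for peak strength or gene length.

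Every autosome with listed members had more gained than lost first intron peaks. The lowest gained share was 74.5%, on chromosome 15 (35 gained, 12 lost), and on chromosome X 12 were gained and 1 lost. On chromosome 18 all 30 changed members were gained.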

How the data were processed

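Accessibility was measured by ATAC-seq in 3 control and 3 Lmna knockout libraries. Per the submitters' processing notes, ChIPseeker, DESeq2, DiffBind, bedtools 2.28.0, MACS2, deepTools, Picard 1.119, SAMtools, Bowtie2 and Trimmomatic 0.39 were used, with mm10. Order, settings, Tn5 shift and normalization were not given in the sources used here. The log2 concentrations and log2 folds are the authors' deposited values, and each fold equalled knockout minus control within 0.01. Each p-value and FDR was deposited by the authors too, and no test between libraries was run here.

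The number of tested peaks was solved from rank, p and FDR. In the retest the median of listed folds was subtracted from each fold. The standard error was the one that turns fold into p in a normal test, unlisted peaks had a p of 1, and Benjamini-Hochberg adjustment followed. The step was tested on simulated data with normal errors and a known offset, which was given to it as the centre. That simulation cannot check the use of the median of listed folds as the centre. Intron genes were matched by gene ID to RefSeq of GRCm38.p6. Genes were named by rule: the 10 largest gains and 10 largest losses at or above the median concentration (predicted gene names left out), the 5 smallest FDR each way, the 8 genes with the most gains and the 5 with the most losses, up to 5 genes with both, list members with the smallest FDR, and fixed genes. The members and lists were chosen with earlier results of these data known. Alternatives were other limits, subsets and centring. Tools were pandas 2.3.3, numpy 2.4.6, SciPy 1.17.1 and matplotlib 3.10.9 on Python 3.11.15.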

Additional observations from a re-analysis of the deposited data

How the results depend on the processing

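An FDR limit of 0.01 left 369 gained and 31 lost first intron peaks (92.2% gained, median lost fold -1.8) in 290 and 27 genes. Requiring a log2 fold past 1 in size gave 83.6% gained, with a median gain of 1.51. Among members from the median concentration upward, 42 were lost, in 31 genes, with 93.2% of changes gained and medians of 1.13 and -1.16. With distal chromosome 14 put back the share was 89.3% and the median gain 1.47. Centred folds had medians of 0.06 over all members, 0.85 for gained and -2.4 for lost peaks. The retest against the median shift gave 152 gained and 526 lost peaks in 119 and 347 genes, turned the gained share to 22.4% and the median of members to 0.06; the cause was not tested. At least 10 kb from a start site, 504 peaks were gained, in 349 genes. With the intron gene also nearest, or sex chromosomes left out, none of the 8 results moved. Chosen after seeing the data, peaks inside RefSeq gene bounds gave 639 gained and 93 lost (87.3%). The gained share near starts exceeded that beyond 100 kb by 27.5 percentage points, and by 15.4 at a log2 concentration of 4 or more. No paired analysis was possible because values per library were not used, and for that reason tests on counts and leaving out single libraries were not run. Motif counts over whole peaks were not run, since no genome was given. Depth per library is unknown.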
